A study of Mus musculus with 9 samples.

Results

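The nuclear receptors outside the Nr4a and Nr1d families, with their coactivators, were followed in OB-6 cells, a mouse osteoblastic line, at 0, 30 and 60 min of parathyroid hormone (PTH). Members were chosen by gene symbol from the platform annotation. They were probe sets with a single symbol of Nr, a digit and a letter, or one that begins with Rar, Rxr, Ppar, Esr, Ncoa or Ncor, or that is Vdr, Thra or Thrb, with Nr4a, Nr1d and Rarres genes left out. The rule took 62 of 12488 probe sets, from 42 of 8251 genes with a symbol of their own. It found 30 receptor genes, 7 coactivator genes and no Ncor corepressor probe set. It also took 5 genes of other kinds that share the opening letters. These were the splicing regulators Esrp1 and Esrp2, the arginyl-tRNA synthetases Rars and Rars2, and Nr2c2ap, named for binding the receptor Nr2c2. The 60 min, 30 min and 0 min groups had 3 arrays each of total RNA, named replicates a, b and c, all of this line. The PTH dose is not given in the sources used here. No time-matched cultures without hormone were analysed here, so time in the experiment and PTH cannot be told apart. The labels do not say whether replicates were separate cultures, so p-values measure the spread between arrays, which may be technical.

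Nuclear receptors are transcription factors that bind DNA and, in most families, a small lipid-soluble ligand such as a steroid, a thyroid hormone, vitamin D, a retinoid or a fatty acid derivative. Many of the non-steroid receptors act as dimers with a retinoid X receptor, and bound receptors exchange corepressors for coactivators that open chromatin. In osteoblasts the vitamin D, glucocorticoid and oestrogen receptors are known as regulators of differentiation and of bone turnover, and PTH signals in these cells largely through cAMP.

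Osteoblastic identity was checked with 10 markers, of which 6 were measured. Runx2, Sp7, Bglap and Spp1 had no probe set with that symbol alone. Alpl, alkaline phosphatase, averaged 234 ± 9.67 at 0 min (SD, n = 3), with a log2 fold change of 0.31 at 60 min (limma adjusted p = 0.111). Col1a2 and Col1a1, the chains of type I collagen, averaged intensities of 5386 ± 304 and 3809 ± 1060 at 0 min (SD, n = 3), while Pth1r, the PTH receptor, averaged 15.7 ± 8.81, and was not tested. Omd, the matrix proteoglycan osteomodulin, averaged 545 ± 120 at 60 min and 2083 ± 225 at 0 min (log2 fold change -1.93, limma adjusted p = 0.0145, lost without replicate a or b of the 0 min group). Col1a1 stood at 0.56 (limma adjusted p = 0.0499), a call lost on leaving out 7 of the 9 arrays one at a time, and Ibsp, bone sialoprotein, at -0.80 (limma adjusted p = 0.0576). Of the 7 haematopoietic and osteoclast markers 5 were tested and 0 passed in limma at 60 min, with 0 at an unadjusted p under 0.05. At 0 min Cd14 averaged 976, Ctsk 599, Cd68 139, Csf1r 83.0 and Acp5 41.9, while Ptprc and Itgam, at 5.87 and 5.73, were too dim to test. The muscle marker Ckm, a creatine kinase, averaged 106 ± 16.9 at 60 min and 53.4 ± 10.9 at 0 min (log2 fold change 0.86, limma adjusted p = 0.0197, lost without any 1 of the 0 min arrays). Of the other muscle markers, Myod1 stood at 0.24 (limma adjusted p = 0.499) and Myog at -0.53 (limma adjusted p = 0.279). Des and Acta1 were too dim to test. All 4 measured chondrocyte and all 4 endothelial markers were too dim to test. The summed endothelial markers ran from 29.3 to 45.3 at 0 min, from 37.6 to 70.8 at 30 min and from 81.1 to 95.3 at 60 min. The 5 muscle markers summed to 204 to 302, 325 to 363 and 276 to 410 at the same times, the 4 measured adipocyte markers to 496 to 541, 554 to 577 and 563 to 617, and the 7 haematopoietic markers to 1761 to 2001, 1892 to 2048 and 1808 to 2264. Most of the adipocyte sum was Cebpa, which averaged 408, 469 and 486 at the 3 times, while Fabp4 averaged 82.5, 71.9 and 77. Neither passed in limma, and Adipoq and Lpl were too dim to test. The part of other cell types in the results was not tested. The 60 min replicate b array stood apart, with a median Pearson correlation of 0.938 with its fellows, while each of the others had 0.954 to 0.967.

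A probe set was tested where at least 3 of the 9 arrays lay above an intensity of 44.7, which 38 of the 62 member probe sets did, from 29 genes. The other 24 had mean intensities between 1.92 and 35.6. For 13 genes no probe set was tested. They were both oestrogen receptors (Esr1 with 4 probe sets, Esr2), the oestrogen-related receptor Esrrb, the xenobiotic receptor Nr1i2, Ppard, Rxrg, the orphan receptors Nr0b1, Nr0b2, Nr2c2, Nr5a2 and Nr6a1, the coactivator Ppargc1a, and Esrp1. A dim probe set bounds the signal of that probe set and does not show that the gene was silent. Intensities of different probe sets are not read as amounts of their genes against each other, since each has its own affinity. The marker averages and sums above carry the same limit, and a sum weighs its brightest probe sets most.

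After 60 min of PTH 3 of the 38 tested member probe sets were lower than at 0 min and 0 were higher, at a limma Benjamini-Hochberg adjusted p under 0.05. They belong to the glucocorticoid receptor Nr3c1, the coactivator Ncoa4 and the synthetase Rars2. This is 7.89% of the tested members, beside a background of 13.1% of all 7884 tested probe sets in either direction, 4.35% higher and 8.73% lower. Receptors and coactivators alone had 33 tested probe sets, of which those of Nr3c1 and Ncoa4 passed. At an unadjusted p under 0.05 there were 5 members, or 13.2%, beside 32.8% of all tested. All 3 arrays at 60 min lay outside the range of the 0 min arrays for 7 members, or 18.4%, beside 40.7% of all tested. Nr2f6 and Esrp2 lay above, and Nr3c1, Ncoa4, Ncoa6, Rars and Rars2 below. The median log2 fold change was 0.12 over the tested members and 0.03 over all tested, and the median size without regard to sign was 0.17 and 0.26. In these bulk cultures fewer cells of a type and less RNA per cell cannot be told apart. Fold changes are given as log2(intensity + 11.8), so a dim probe set's change is understated.

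**Figure D1:**
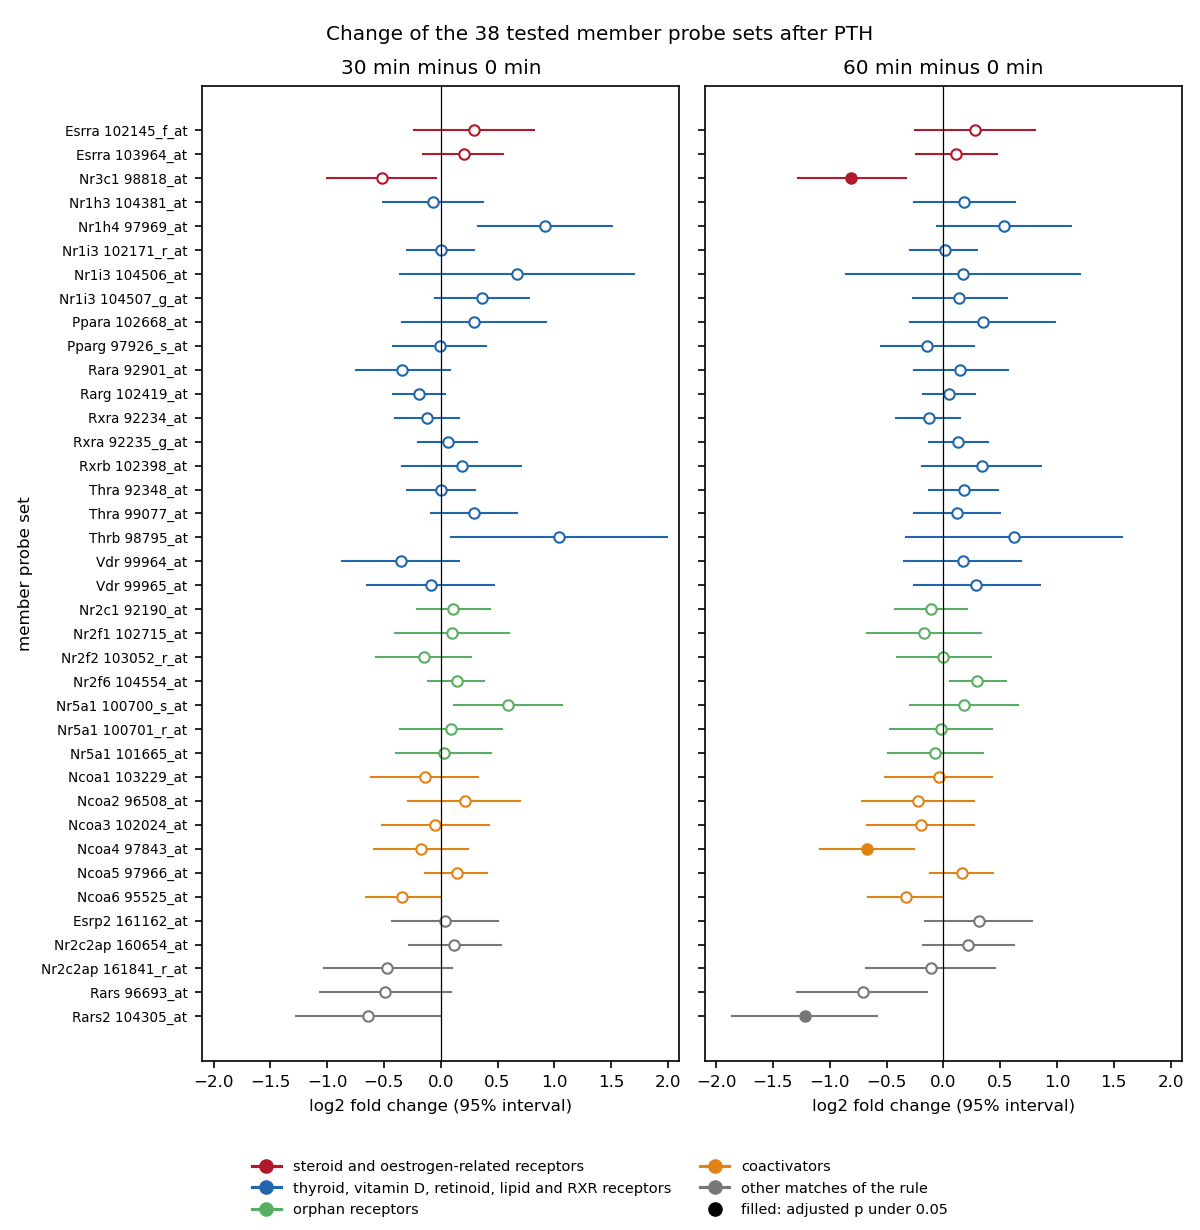
Log2 fold change of the 38 tested member probe sets after 30 min (left) and 60 min (right) of PTH against 0 min, with 95% intervals from limma, coloured by role. Filled points passed an adjusted p under 0.05, which 0 probe sets did at 30 min and 3 did at 60 min, Nr3c1, Ncoa4 and Rars2, all to the left of 0.

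Nr3c1, the receptor for glucocorticoids, had intensities of 67.8, 69.4 and 66.7 at 0 min, of 51.8, 40.5 and 39.9 at 30 min and of 43.7, 27.6 and 31.3 at 60 min. All arrays at 30 and 60 min lay below all those at 0 min, and the 30 and 60 min arrays overlapped. It averaged 34.2 ± 8.44 at 60 min and 68.0 ± 1.35 at 0 min, with every 60 min array lower. On the log2(intensity + 11.8) scale the fold change was -0.81, or 1.75-fold lower, with a 95% interval of -1.28 to -0.33 (SE 0.22), and the limma adjusted p was 0.0352. At 30 min the log2 fold change was -0.52 (limma adjusted p = 0.237). The probe set passed the filter through its 3 arrays at 0 min and 30 min replicate a, and all of its 60 min arrays lay below 44.7. The call was lost without any single 0 min array, without 30 min replicate c and without 60 min replicates b or c, at adjusted p of 0.0517 to 0.117. It was also lost with no filter (0.0551) and after quantile normalization (0.0507).

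The remaining receptors of the steroid class were not called. Esrra, an oestrogen-related orphan receptor that acts with Ppargc1a on mitochondrial genes, averaged 229 ± 27.8 at 60 min and 211 ± 27.4 at 0 min by its brighter probe set, a log2 fold change of 0.11 (95% interval -0.24 to 0.47). Its dimmer probe set stood at 0.28 (-0.25 to 0.81). The 4 probe sets of Esr1, the oestrogen receptor alpha, had means over all arrays from 8.96 to 29.7, and that of Esr2 a mean of 3.94.

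**Figure D2:**
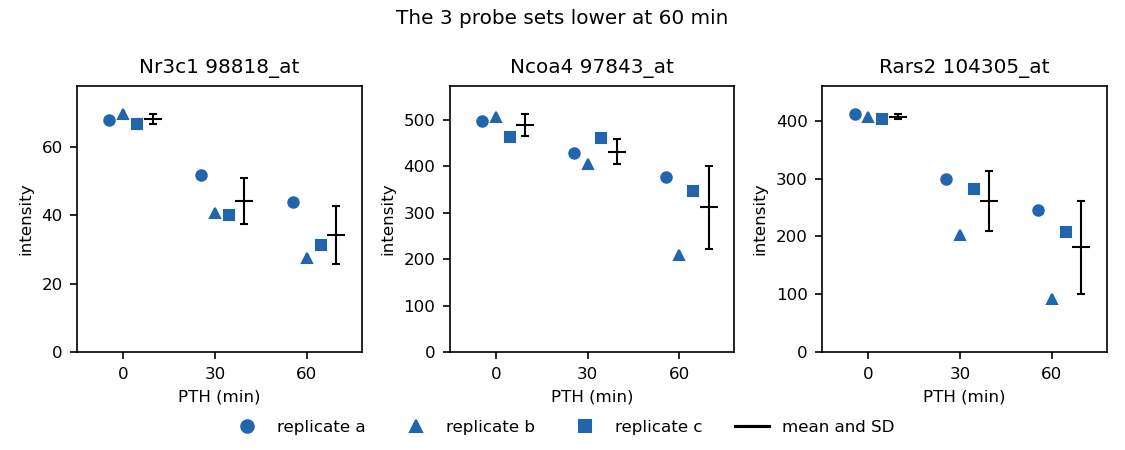
Intensity of Nr3c1, Ncoa4 and Rars2 on each of the 9 arrays at 0, 30 and 60 min of PTH, with the mean and SD of 3 arrays to the right of the points. In all 3 panels the 60 min arrays lie below every 0 min array, and the 60 min replicate b is the lowest of all, at 27.6, 209 and 91.0.

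Of the 6 tested coactivator probe sets, that of Ncoa4 passed at 60 min. It binds the androgen receptor and is also known as the cargo receptor that carries ferritin to lysosomes. Its intensities were 497, 506 and 462 at 0 min, 429, 405 and 460 at 30 min and 377, 209 and 347 at 60 min. The 60 min arrays lay below all others. It averaged 311 ± 89.6 at 60 min and 488 ± 23.3 at 0 min. On the log2(intensity + 11.8) scale this is -0.67 ± 0.19 (SE), a 1.59-fold fall, with a limma adjusted p of 0.0412. Against 30 min the log2 fold change was -0.50 (limma adjusted p = 0.54). Without 60 min replicate b the log2 fold change from 0 min was -0.42, with an adjusted p of 0.0492. The call was lost without any single 0 min array, 30 min replicate c or 60 min replicate c (adjusted p of 0.0521 to 0.128). It was also lost with no filter (0.0627), without a variance trend (0.063) and in a fit of these 2 groups alone (0.0677). A second Ncoa4 probe set was too dim to test, with a mean of 10.9.

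The p160 family of histone-acetylating coactivators, Ncoa1, Ncoa2 and Ncoa3, stood at log2 fold changes of -0.04 (95% interval -0.51 to 0.43), -0.22 (-0.72 to 0.27) and -0.20 (-0.67 to 0.27) at 60 min. Ncoa6, a coactivator found in a histone methyltransferase complex, had intensities of 132, 122 and 134 at 0 min, 93.0, 98.6 and 109 at 30 min and 104, 86.0 and 114 at 60 min. All arrays with PTH lay below those at 0 min, and the log2 fold change was -0.34 at 30 min and -0.33 at 60 min, with limma adjusted p of 0.269 and 0.152. A dim second probe set of Ncoa6, not tested, averaged 30.8 at 60 min and 42.5 at 0 min. Ncoa5 stood at 0.16 (95% interval -0.12 to 0.44) at 60 min. Ppargc1a, which cAMP is known to induce in liver, was at 7.7, 5.3 and 6.0 at 0 min, 2.2, 2.1 and 3.0 at 30 min and 2.2, 7.7 and 11.6 at 60 min, so no array was above 44.7.

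PTH acts through cAMP, so the 250 bases before the annotated RefSeq starts (GRCm38.p6) of 34 of the 42 member genes were searched (all but Esrp1, Esrp2, Ncoa2, Ncoa3, Nr3c1, Nr5a1, Rars and Thra) for the letters of the cAMP response element, TGACGTCA, of its core, TGACG, and of the AP-1 site, TGANTCA, on both strands. The full element was in 0 of 52 windows, beside 1.55% of 32851 windows of all genes. The core, which the full element contains, was in 11 windows, or 21.2%, beside 17.8% of all, and TGANTCA in 1 window, of Nr1i3, beside 6.75% of all. Member windows on a single chromosome were left out of this search, while the windows of all genes kept that chromosome. Of the genes called at 60 min, Ncoa4 has 3 annotated starts and Rars2 has 1. The sequences shown are those of these genes, as the called members that were searched, and of Ppargc1a, as the coactivator with a known cAMP response. Nr3c1, also called, was not searched. Capitals mark the core (CGTCA on the other strand), and a match is a description of the letters alone.
Ncoa4, start 3, chr14:32165539-32165788, plus strand: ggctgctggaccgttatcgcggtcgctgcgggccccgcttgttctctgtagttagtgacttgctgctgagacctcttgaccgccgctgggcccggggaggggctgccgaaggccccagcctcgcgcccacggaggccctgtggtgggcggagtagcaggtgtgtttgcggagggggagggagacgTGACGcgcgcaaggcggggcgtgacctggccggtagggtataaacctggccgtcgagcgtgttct
Rars2, chr4:34614707-34614956, plus strand: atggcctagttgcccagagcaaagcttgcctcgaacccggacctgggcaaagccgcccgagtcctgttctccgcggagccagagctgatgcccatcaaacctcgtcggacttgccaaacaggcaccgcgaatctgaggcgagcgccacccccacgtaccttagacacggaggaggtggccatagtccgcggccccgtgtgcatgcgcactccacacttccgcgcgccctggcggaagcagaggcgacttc
Ppargc1a, chr5:51567726-51567975, minus strand: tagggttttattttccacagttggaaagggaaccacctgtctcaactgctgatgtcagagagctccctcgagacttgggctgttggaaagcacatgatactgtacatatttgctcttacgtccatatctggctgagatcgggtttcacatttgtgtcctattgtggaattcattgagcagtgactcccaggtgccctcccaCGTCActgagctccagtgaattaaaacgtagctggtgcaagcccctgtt
The core begins 65 bases before start 3 of Ncoa4 and 49 bases before the start of Ppargc1a, and its letters are not in the Rars2 window or those of starts 1 and 2 of Ncoa4.

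The receptors for thyroid hormone, vitamin D, retinoids and lipids, with their RXR partners, had 17 tested probe sets from 12 genes, of which 0 passed in limma at either time. Their log2 fold changes at 60 min ran from -0.14 to 0.62 with a median of 0.17, and the lowest limma adjusted p was 0.191. Vdr, the vitamin D receptor, had 2 probe sets. One had 99.0, 79.5 and 77.9 at 0 min, 56.4, 63.6 and 72.6 at 30 min and 96.3, 67.2 and 139 at 60 min. All of its 30 min arrays lay below the 0 min arrays, and the 60 min arrays spread across both. The log2 fold change was -0.35 at 30 min (95% interval -0.87 to 0.16) and 0.17 at 60 min (-0.35 to 0.68). The other Vdr probe set had 57.8, 48.6 and 93.4 at 0 min, 68.1, 64.6 and 48.5 at 30 min and 92.2, 96.2 and 60.8 at 60 min, and all 3 times overlapped. It stood at -0.09 at 30 min and 0.29 at 60 min, with a 95% interval of -0.26 to 0.85 at 60 min.

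The tested retinoic acid receptors, Rarg and Rara, also had their lowest means at 30 min, and neither passed in any comparison. Rarg had 449, 415 and 412 at 0 min, 357, 375 and 382 at 30 min and 466, 428 and 428 at 60 min. Its 30 min arrays lay below all others. Its log2 fold change was -0.19 at 30 min against 0 min (limma adjusted p = 0.362) and 0.24 at 60 min against 30 min (limma adjusted p = 0.54). Rara had 144, 132 and 94.5 at 0 min, 92.4, 115 and 78.0 at 30 min and 148, 134 and 129 at 60 min. The 60 min arrays of Rara lay above the 30 min arrays, with a log2 fold change of 0.49 (95% interval 0.08 to 0.90, limma adjusted p = 0.54), while 0 and 30 min overlapped. At 60 min against 0 min Rarg stood at 0.05 (-0.18 to 0.28) and Rara at 0.15 (-0.26 to 0.57).

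**Figure D3:**
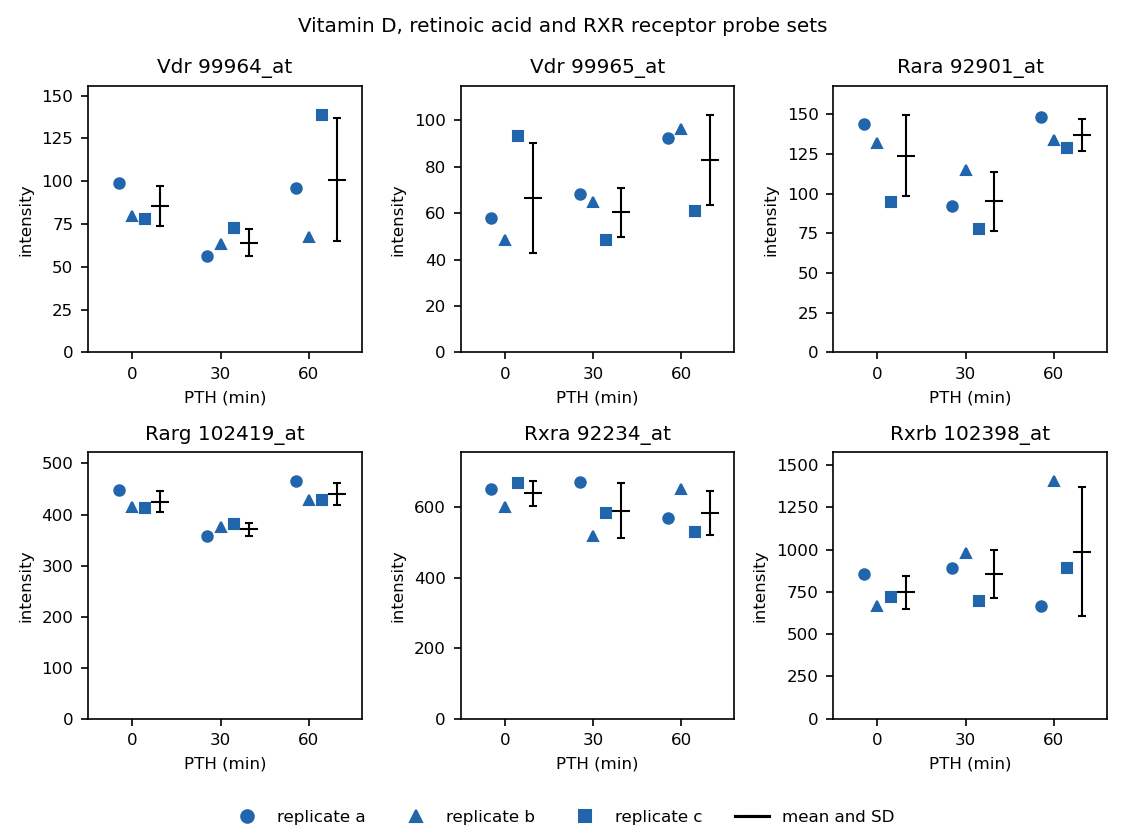
Intensity of the Vdr, Rara, Rarg, Rxra (brighter probe set) and Rxrb probe sets on each array at 0, 30 and 60 min of PTH, with the mean and SD of 3 arrays to the right of the points. The 30 min arrays of Rarg, at 357 to 382, lie below all its others, and the 60 min replicate b of Rxrb, at 1407, lies above all its others.

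No probe set of the RXR partners passed. Rxra averaged 583 ± 61.8 at 60 min and 639 ± 35.5 at 0 min by its brighter probe set, a log2 fold change of -0.13 (95% interval -0.42 to 0.15), and its second probe set stood at 0.13 (-0.13 to 0.39). Rxrb had 664, 1407 and 892 at 60 min, against 854, 667 and 722 at 0 min, and the 2 groups overlapped. Its log2 fold change was 0.34 (95% interval -0.19 to 0.86). Thra, the thyroid hormone receptor alpha, had 990, 899 and 1024 at 0 min, 865, 1121 and 941 at 30 min and 938, 1273 and 1111 at 60 min by its brighter probe set, and the 3 times overlapped. It averaged 1107 ± 168 at 60 min and 971 ± 64.8 at 0 min, a log2 fold change of 0.18 (95% interval -0.13 to 0.48), and 0.12 by the other. The beta receptor was noisier. Thrb had 98.9, 19.0 and 29.4 at 0 min, 97.5, 67.6 and 129 at 30 min and 94.1, 69.6 and 47.1 at 60 min. Its 0 min replicates, at 19.0 to 98.9, overlapped both later times, and its log2 fold change of 1.04 at 30 min had a 95% interval of 0.09 to 1.99 and a limma adjusted p of 0.237.

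Of the lipid and xenobiotic receptors, Nr1h4, the bile acid receptor, had the lowest p at 30 min among all members. It had 17.8, 45.9 and 26.4 at 0 min, 70.9, 64.3 and 58.5 at 30 min and 39.1, 51.0 and 50.1 at 60 min. The 30 min arrays lay above all others. The log2 fold change was 0.92 at 30 min (95% interval 0.33 to 1.51, limma adjusted p = 0.125) and 0.53 at 60 min (limma adjusted p = 0.191). Nr1h3, an oxysterol receptor, stood at 0.18 at 60 min (95% interval -0.26 to 0.63), Ppara at 0.35 (-0.29 to 0.98) and Pparg, the adipogenic receptor, at -0.14 (-0.55 to 0.27). The 3 probe sets of Nr1i3, a xenobiotic receptor, stood at 0.01, 0.14 and 0.17. Ppard, at 22.1, 29.2 and 25.7 at 0 min, 6.1, 8.7 and 9.1 at 30 min and 4.7, 12.2 and 35.4 at 60 min, was too dim to test.

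The orphan receptors had 18 probe sets, of which 7 were tested and 0 passed in limma at either time. Nr2f6, a COUP-family receptor that mostly represses transcription, had 484, 568 and 517 at 60 min, against 420, 408 and 435 at 0 min. All 60 min arrays lay above the 0 min arrays, and the log2 fold change was 0.30 (95% interval 0.06 to 0.55, limma adjusted p = 0.0937). Its relatives Nr2f1 and Nr2f2 stood at -0.17 (-0.67 to 0.33) and 0.00 (-0.41 to 0.42), and Nr2c1 at -0.11 (-0.43 to 0.21). Nr5a1, the steroidogenic factor of the adrenal and gonads, had 5 probe sets with means over all arrays of 3.60, 21.8, 52.6, 69.9 and 708. The brightest had 728, 707 and 686 at 0 min, 877, 541 and 787 at 30 min and 689, 817 and 540 at 60 min, with full overlap and a log2 fold change of -0.07 at 60 min (95% interval -0.49 to 0.35). The one at 69.9 had 64.1, 43.9 and 58.6 at 0 min, 85.8, 92.5 and 88.4 at 30 min and 45.8, 74.8 and 75.6 at 60 min. It was highest at 30 min on all arrays, at a log2 fold change of 0.59 (limma adjusted p = 0.189), while the other 2 tested stood at 0.03 and 0.09. Among the dim ones, a probe set of Nr5a2 had 3.4, 1.4 and 3.2 at 0 min, 14.3, 10.8 and 22.4 at 30 min and 3.5, 19.4 and 19.5 at 60 min.

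The genes of other kinds that the rule took held the largest change among the members at 60 min. Rars2, the mitochondrial arginyl-tRNA synthetase, had 411, 406 and 403 at 0 min, 299, 203 and 282 at 30 min and 245, 91.0 and 208 at 60 min. Every array with PTH lay below the 0 min arrays. It averaged 181 ± 80.5 at 60 min and 407 ± 4.01 at 0 min. On the log2(intensity + 11.8) scale this is -1.22 ± 0.29 (SE), a 2.33-fold fall, with a limma adjusted p of 0.025. With 60 min replicate b left out it was -0.82. The call was lost without any single 0 min array, at 0.0739 to 0.0881. At 30 min the log2 fold change was -0.64 (limma adjusted p = 0.28). Rars, the cytosolic enzyme, had 869, 412 and 998 at 60 min, against 1190, 1165 and 1166 at 0 min. These groups did not overlap, and the log2 fold change was -0.71 (95% interval -1.29 to -0.14, limma adjusted p = 0.0902). Esrp2 stood at 0.31, with its 60 min arrays above the 0 min arrays (limma adjusted p = 0.337), and the 2 probe sets of Nr2c2ap at 0.22 and -0.11.

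**Figure D4:**
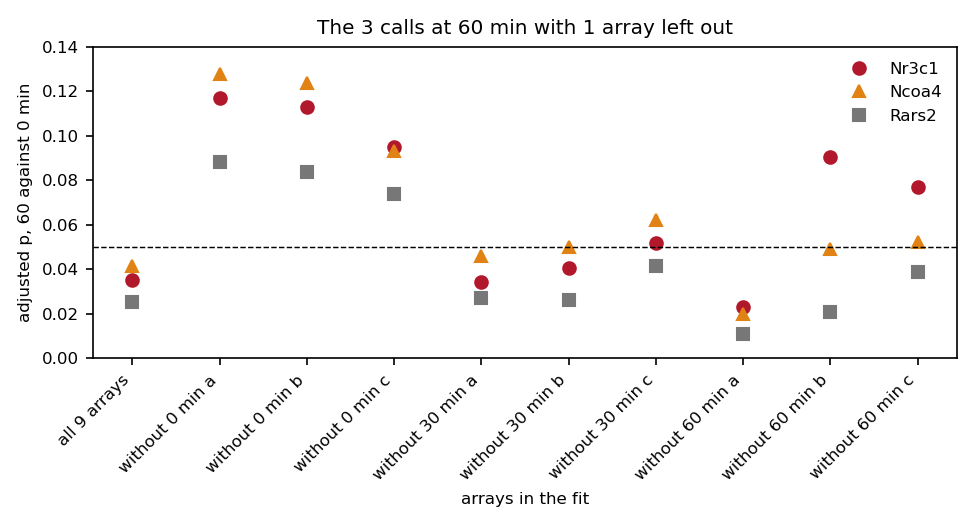
Limma adjusted p of the fall of Nr3c1, Ncoa4 and Rars2 at 60 min against 0 min, in the fit of all 9 arrays and in fits with 1 array left out, the dashed line being 0.05. All 3 lie above the line without any of the 0 min arrays, and Rars2 lies below it in the other 7 fits shown.

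After 30 min 0 of the 38 tested member probe sets passed in limma, beside 0.939% of all tested (0.482% higher, 0.457% lower), and 5 had an unadjusted p under 0.05, or 13.2%, beside 17.9% of all tested. The 2 groups did not overlap for 10 members, or 26.3%, beside 30.6% of all tested. A probe set each of Nr1h4, Nr5a1 and Thra lay above at 30 min, and Nr3c1, Ncoa4, Ncoa6, Rarg, Vdr (a single probe set), Rars and Rars2 below. The median log2 fold change was 0.03 over the members and 0.05 over all tested. Between 60 and 30 min 0 members passed, beside 0.0254% of all tested, with 4 at an unadjusted p under 0.05, or 10.5%, beside 9.07% of all tested, which were Ncoa4, Rara, Rarg and a probe set of Vdr. The 60 and 30 min groups did not overlap for 6 members, or 15.8%, beside 11.6%. Rara and Rarg lay above at 60 min, and Ncoa2, Ncoa4, Nr1h4 and a probe set of Nr5a1 below. Ncoa2 passed the filter through its 30 min arrays and 0 min replicate a, and all of its 60 min arrays lay below 44.7. In the F test for any change over the 3 times 0 members passed, beside 4.64% of all tested, with 4 at an unadjusted p under 0.05, beside 26.3% of all tested, and a lowest limma adjusted p of 0.0696, for Rars2. The comparisons with 0 min share the 0 min arrays, so their values for a member are not independent.

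Other genes of nuclear receptor signalling were taken from 6 lists, each gene by its brightest probe set, beside a background at 60 min of 4.60% higher and 9.10% lower among 5936 genes. Among receptors outside the rule, 5 of 8 measured were tested, Nr4a1 rose by 2.52 on the log2 scale (SE 0.23, limma adjusted p = 0.000803) and Nr1d2, a haem-binding repressor of the clock, fell by 1.34 (SE 0.37, limma adjusted p = 0.0395). Among 34 tested partners of the coregulators 3 rose and 6 fell at 60 min. The largest were falls of Ddx5, an RNA helicase and coactivator, by 1.13 (SE 0.29), of Pias2, a SUMO ligase, by 0.77 (SE 0.18) and of Tbl1xr1, a subunit of the Ncor complex, by 0.71 (SE 0.18), and the median was -0.14 beside 0.04 over all genes. Without any single 0 min array 0 of the 34 were called, without 60 min replicate b 0 rose and 2 fell, without replicate c of 30 min 1 rose and 3 fell, without that of 60 min 2 rose and 3 fell, and after cyclic loess 1 rose and 5 fell. Of 9 chaperones of the steroid receptors 2 rose and 2 fell. The counts were 0 and 0 without replicate a or b of the 0 min group, 1 and 1 without its replicate c or without 60 min replicate b, 1 and 2 on leaving out 60 min replicate c or after cyclic loess, and 2 and 3 on leaving out replicate a of 30 or of 60 min. Hsp90aa1, the inducible cytosolic chaperone, fell by 1.57 and Ppid, a cyclophilin, by 0.89, while Fkbp4, an immunophilin of receptor complexes, rose by 0.57, as did Cdc37, a kinase co-chaperone named after its values were seen, by 0.56 (limma adjusted p = 0.0345). Except for Nr4a1, each receptor, partner or chaperone call named here, that of Cdc37 included, needed both a and b of the 0 min arrays. Those of Nr1d2, Ddx5, Pias2, Tbl1xr1 and Hsp90aa1 were also lost without 0 min replicate c, those of Nr1d2 and Tbl1xr1 without 30 min replicate c or 60 min replicate c, and those of Tbl1xr1 and Hsp90aa1 without 60 min replicate b.

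Genes known as receptor targets were read beside their receptors. Of 15 tested glucocorticoid receptor targets 6 rose and 2 fell at 60 min, with a median log2 fold change of 0.40. The largest were the rises of Errfi1, an EGF receptor inhibitor, by 1.50, of Dusp1, a MAP kinase phosphatase, by 0.93 and of Cebpd, a bZIP transcription factor, by 0.85. Several of these genes are also known to respond to cAMP or to growth factors. Those that fell were Bcl6 by 0.46 (limma adjusted p = 0.0288) and Klf9 by 0.44 (limma adjusted p = 0.0442). At 30 min 2 rose, Dusp1 by 1.81 and Errfi1 by 1.34, beside 0.573% higher and 0.489% lower among all genes. The count was 4 without 30 min replicate a or after quantile normalization and 5 without 60 min replicate b. Both kept their calls with any 1 array left out at both times, whereas Cebpd lost its call without replicate a or b of the 0 min group. Leaving out a, b or c of that group left 2, 2 or 3 rises at 60 min, and over all 9 such fits there were 2 to 8 rises and 0 to 3 falls. The falls were 0 in those fits and without 60 min replicates b or c. Of 6 tested targets and ligand-handling genes of the vitamin D and retinoid receptors 0 passed in limma at either time, with 0 at an unadjusted p under 0.05. Of 12 LXR and PPAR targets 0 rose and 1 fell at 60 min, Acadm, a fatty acid oxidation enzyme, by 0.87 (limma adjusted p = 0.0197). Each single 0 min array was needed for that call, and 1 rose without 30 min replicate c.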

How the data were processed

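RNA of OB-6 cells was measured on 1-colour oligonucleotide arrays, 3 at each of 0, 30 and 60 min of PTH. The authors deposited 1 linear intensity per probe set and array, from 0.1 to 8605, but how they were summarised is not given in the sources used here. The mean intensity of an array, trimmed by 2% at either end, was 250.1 to 250.2 throughout, so the deposited scaling was kept. The number of arrays limits the precision: for 3 arrays against 3, permuting labels exactly gives p = 0.1 at best.

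Of the probe sets other than 66 controls, 10833 had 1 gene symbol in the platform annotation, 396 several and 1193 none, and the RefSeq gene table (GRCm38.p6) held the Entrez identifier of 10817 and changed 0 symbols. Intensities were converted to log2(intensity + 11.8), adding the 20th percentile, and 7884 probe sets had at least 3 arrays above the 40th percentile, 44.7. All 9 arrays entered a single model of 3 group means in limma 3.58.1 under R 4.3.3 (lmFit, eBayes with a variance trend, 6 residual and 4.68 prior degrees of freedom), with Benjamini-Hochberg adjustment over all tested probe sets. The fit was also run on simulated data with independent noise, of the same spread on all 9 arrays for each probe set. That setting has no deviating array, so it does not bear on how far calls depend on single arrays. Plots used Python 3.11.15 and matplotlib 3.10.9.

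The members, lists and alternatives were chosen with earlier results of these data known. Values on all arrays are given for members past the threshold in any test and for the brightest of each role group without one. Others are given in part, and those in which groups did not overlap were chosen after their values were seen. From each list up to 3 called genes with the largest change are named, and Cdc37, Bcl6 and Klf9 were added after their values were seen. The 6 lists hold receptors outside the rule, coregulator partners, receptor chaperones, and targets of the glucocorticoid, of the vitamin D and retinoid, and of the LXR and PPAR receptors. Same-letter arrays at different times had correlations of their deviations from the group means between -0.128 and 0.304, with 2 of 9 pairs above 0.1, so the letters were not taken to pair the arrays. These 2 were 30 with 60 min of replicate a (0.304) and of replicate b (0.251). Arrays of different letters lay between -0.266 and 0.179. Whether same-letter arrays shared a culture or batch was not tested.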

Additional observations from a re-analysis of the deposited data

How the results depend on the processing

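The median log2 fold change of the tested members moved by less than the spread between replicates in all alternatives tried, between 0.04 and 0.18 at 60 min against 0 min, -0.01 and 0.06 at 30 min and -0.09 and 0.06 at 60 against 30 min. Some of these could not move it. They were the fit of the groups compared alone, the replicate block, no variance trend, and leaving out an array of the time not compared. The spread was the larger SD of the per-array member medians in the groups compared. At 60 min that SD was widened by replicate b, whose median was 0.139, beside -0.0173 and 0.0199 for replicates a and c. The count of 3 called members at 60 min was 1, Rars2, with no filter (beside 5.25% of all tested). With 1 array left out it was 0 to 3, being 0 without any single 0 min array (beside 0.977% to 3.29% of all tested, against 13.1% with all arrays) and 1 without 30 min replicate c (beside 8.78%), so calls were lost over all probe sets too. With array weights it was 4, of which Nr2f6 was higher, beside 31.7%. Nr3c1, Ncoa4 and Rars2 were lower at 60 min in all 20 alternatives and called in 12, 12 and 17 of them, with adjusted p from 0.00433 to 0.117, 0.00441 to 0.128 and 0.000918 to 0.0881. Every 60 min array of each lay below all its 0 min arrays, so only another scaling of the arrays could have turned these signs. At 30 min the count of 0 became 2 (Rars, Rars2) in a fit of the groups compared alone (beside 4.93% of all tested), 0 to 2 with 1 array left out, being 2 without 60 min replicate b (beside 7.06%), and 8 with array weights from limma (beside 30.2%). Array weights gave 3 calls at 60 against 30 min (Ncoa4, Rara, Vdr, beside 10.6%), where 1 array left out gave 0, and 10 in the F test (beside 42.6%), where 1 array left out gave 0 to 2. They put weights of 0.195 to 3.79 on single arrays, the lowest on 60 min replicate b, and the cause of the added calls was not tested. With the replicate block the count was 4 at 60 min, with Rars added (beside 18.3%), and 1 (Rars2) in the F test (beside 10.6%). The labels do not say what arrays of the same letter share. For the F test a fit of the groups compared alone is the fit reported. Signs turned for 2 of the named members, both near 0. Thra at 30 min stood at -0.02 after quantile normalization, -0.04 after cyclic loess and -0.01 with array weights, and between -0.10 and 0.08 with 1 array left out. The brightest Nr5a1 probe set stood at -0.01 at 30 min after cyclic loess, and with 1 array left out between -0.11 and 0.23 at 30 min, -0.21 and 0.09 at 60 min and -0.30 and 0.06 at 60 against 30 min.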
